A study of Mus musculus with 3 samples.

Results

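The genes of the major histocompatibility complex (MHC) and of antigen presentation were described in the choroid plexus epithelium (CPE) of the mouse, the epithelial layer that forms the blood-CSF barrier and secretes the cerebrospinal fluid. Members were all probes whose gene name on the array starts with H2-, the mouse name of the MHC, together with those of *B2m*, *Tap1*, *Tap2*, *Tapbp*, *Psmb8*, *Psmb9*, *Psmb10*, *Psme1*, *Psme2*, *Cd74*, *C2ta* (now *Ciita*), *Calr*, *Canx* and *Cd1d1*. The rule used names only and no measured value. It took 76 of 41174 probes, which stand for 48 of 27845 gene names, 34 of them H2-named. *H2-D1* and *H2-L*, other class I heavy chains, have no probe under that name and were not analysed here.

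Class I MHC molecules are a heavy chain bound to beta 2-microglobulin, and they show peptides from inside the cell to CD8+ T cells. The proteasome cuts these peptides, the TAP transporter carries them into the endoplasmic reticulum, and tapasin, calreticulin and calnexin help to load and fold the complex. Class II molecules are pairs of alpha and beta chains that show peptides from endosomes to CD4+ T cells; the invariant chain CD74 guides them there, H2-DM loads the peptide, H2-O restrains H2-DM, and CIITA switches the class II genes on. Class I genes are active in most nucleated cells, whereas class II genes are known mainly from professional antigen presenting cells, and macrophages and dendritic cells are resident in the choroid plexus beside the epithelium.

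The study put CPE from 3 healthy adult mice of strain C57BL/6 on 3 arrays of 2 colours each, 1 mouse per array. No mouse was treated or genetically altered. CPE was laser dissected from 20 µm cryosections, its RNA was amplified and labelled with Cy5, and each array carried the same reference in Cy3, RNA from the retinal pigment epithelium and choroid (RPE/choroid) of the same strain. The choroid is a vascular and pigmented tissue with resident leukocytes, so a ratio near 0 means a signal like that of a tissue with its own immune cells. As in all bulk samples, fewer cells of a type and less RNA per cell cannot be told apart.

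2 measures were used. The log2 ratio is CPE over reference after normalization within each array, positive where CPE was higher, and the threshold for a gene was a difference of at least 2-fold with an adjusted p below 0.05. The percentile is the rank of the CPE intensity among all probes, called high above 90, moderate from 50 to 90, low from 10 to 50 and very low under 10. It ranks probes on the array and gives no order of transcripts. A gene stands by its brightest probe. No dye was swapped, so a dye effect of a probe does not cancel.

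The arrays differed in depth. CPE was well above background at 58.5%, 46.0% and 85.6% of probes in mice 1, 2 and 3. No member probe was saturated. Of 8 CPE markers found on the array, 7 passed the threshold on the side of CPE, with a median log2 ratio of 3.41. Of 7 markers of RPE and melanocytes, 6 were lower, with a median of −5.26.

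The promoters below are marked for short sequence patterns known from the promoters of these genes. Other elements and variant forms were not searched, so lower case does not mean that an element is absent. The promoters are those of the light chain and of the heavy chains *H2-Q7* and *H2-T23*, whose probes ranked high. Those of the class II genes *H2-Aa* and *H2-DMb1*, whose ratios lay on opposite sides of 0, are also given. Each line holds 150 bases upstream of the start site, 5′ to 3′ on the gene's own strand, from RefSeq on GRCm38.p6. The line of *H2-Q7* leaves out the 16 bases next to the start site, which hold another CCAAT match at −16, because the RefSeq gene begins within them. Capitals mark matches, on either strand, to the interferon response core GAAANNGAAA, to CCAAT (the Y box of MHC promoters) or to the kappa B letters GGGATTCCC.
*B2m*, chr2:122147537-122147686, plus strand: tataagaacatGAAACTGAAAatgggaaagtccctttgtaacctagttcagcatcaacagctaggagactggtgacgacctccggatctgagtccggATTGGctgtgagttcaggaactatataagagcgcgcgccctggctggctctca
*H2-Q7*, chr17:35438989-35439138, plus strand: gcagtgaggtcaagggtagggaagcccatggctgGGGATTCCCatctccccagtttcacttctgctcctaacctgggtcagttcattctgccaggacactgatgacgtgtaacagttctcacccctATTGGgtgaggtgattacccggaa
*H2-T23*, chr17:36032702-36032851, minus strand: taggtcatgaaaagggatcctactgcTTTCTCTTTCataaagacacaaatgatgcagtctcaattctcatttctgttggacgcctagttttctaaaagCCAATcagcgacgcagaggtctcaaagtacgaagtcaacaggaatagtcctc
*H2-Aa*, chr17:34287824-34287973, minus strand: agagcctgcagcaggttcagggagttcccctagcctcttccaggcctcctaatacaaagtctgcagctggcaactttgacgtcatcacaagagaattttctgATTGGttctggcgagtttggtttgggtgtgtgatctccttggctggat
*H2-DMb1*, chr17:34153041-34153190, plus strand: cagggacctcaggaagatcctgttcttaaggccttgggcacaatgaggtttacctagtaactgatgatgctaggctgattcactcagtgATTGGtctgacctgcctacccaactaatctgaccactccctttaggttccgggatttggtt

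The search covered 250 bases upstream of 41 RefSeq start sites of 36 member genes, with 32851 start sites of all genes as background. CCAAT was present at 31 of the 41 (75.6%) against 33.8% of all. The interferon core was present at 3 (7.32%) against 2.98%, and these 3 were *B2m*, *H2-T22* and *H2-T23*. The kappa B letters were present at 3 (7.32%) against 0.301%, at both start sites of *H2-K1* and at *H2-Q7*. Class I genes descend from gene duplications and share promoter sequence, so these start sites are not independent. CCAAT was also present at all 6 promoters of *H2-M10* genes, whose probes ranked low in CPE. A match is a description of these windows and says nothing of binding in CPE.

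Across all members, *B2m*, 8 of 23 class I heavy chain genes and 3 of 5 peptide transport and loading genes ranked high in CPE, and few members differed from the reference by 2-fold. *Cd74*, *Calr* and *Tap2* rose and *B2m* fell. Thus 3 of the 38 tested genes were past the threshold and higher, against a background of 8.11% of all tested genes, and 1 was lower, against 11.2%. By adjusted p alone 9 were higher (background 18.8%) and 6 lower (background 23.7%). The median log2 ratio of the tested members was −0.01, and −0.04 over all genes. In percentile, 18 of 48 genes were high (background 12.7% of all genes), 13 moderate, 17 low and 0 very low. With dim probes left out of the ranking 9 were high. That ranking held 18475 of the 41174 probes and 32 of the 48 genes, so fewer could be high. The share of all genes that were high in it is not given here. Over all probes, the median percentile of the 48 genes was 83.2 and that of all genes 52.5. The other 10 genes, *H2-M9*, *H2-M10.1*, *H2-M10.2*, *H2-M10.3*, *H2-M10.5*, *H2-M11*, *H2-T3*, *H2-DMb2*, *H2-Oa* and *H2-Ea*, did not reach a signal well above background on every array in the CPE or the reference channel, and were not tested. By their brightest probes, 39 of the 48 genes lie on chromosome 17, between 33539531 and 36882517 on mm8.

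**Figure D1:**
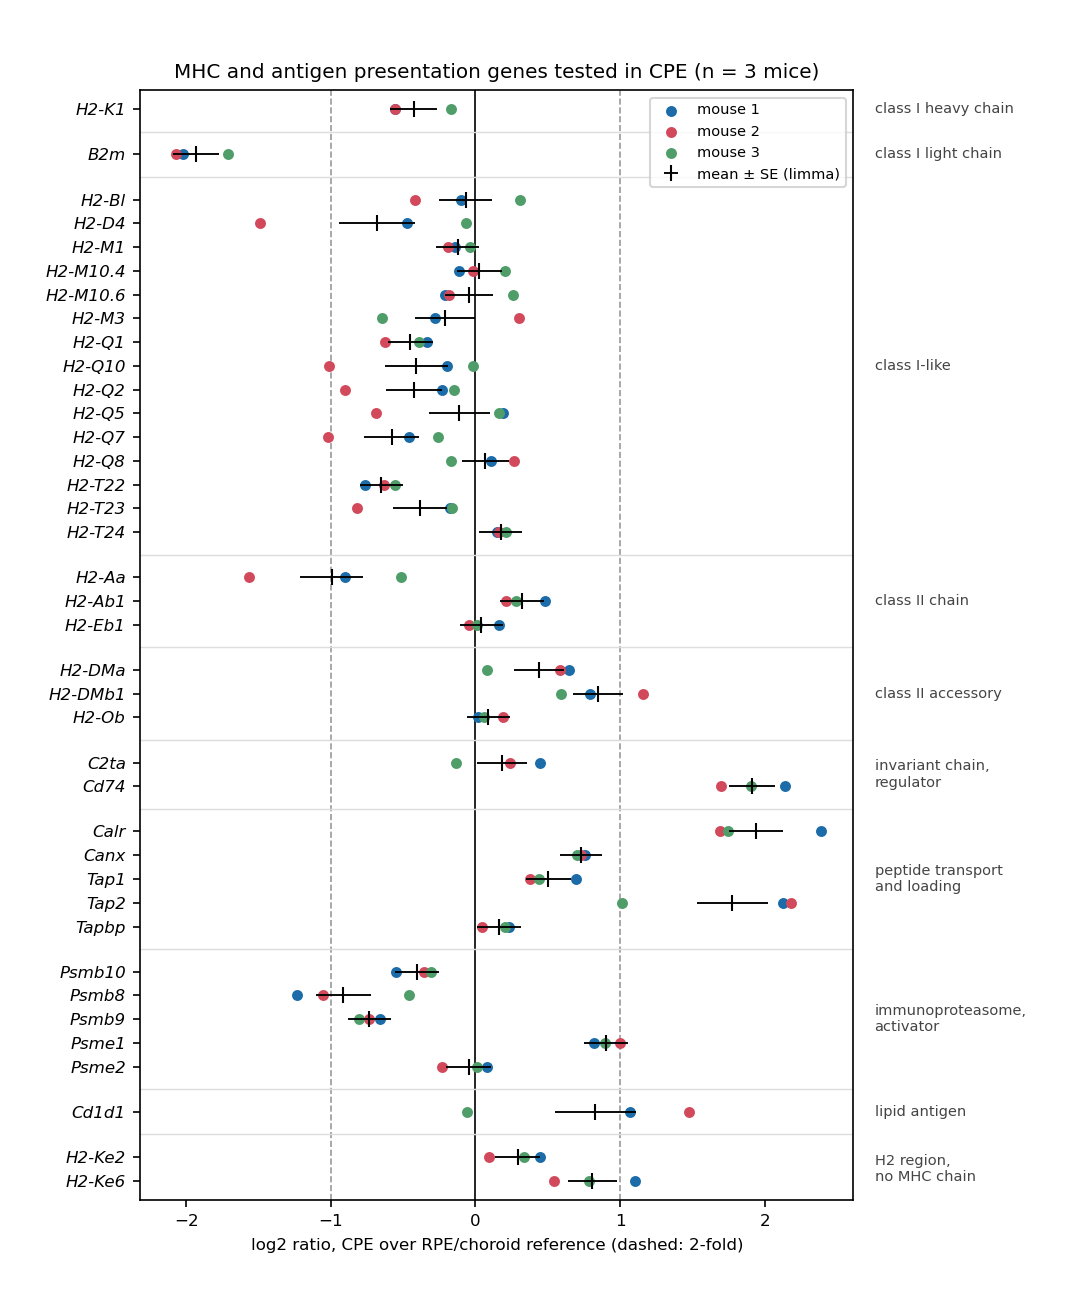
Log2 ratio of CPE over the RPE/choroid reference for the 38 tested genes, grouped by role. Dots are the 3 mice, black bars the limma mean with its SE, dashed lines mark 2-fold. *Cd74*, *Calr* and *Tap2* lie above 1 in all 3 mice and *B2m* below −1 in all 3, while 11 of the 12 class I heavy chain genes measured in CPE have a mean below 0, although 10 of the 12 turn above 0 under median centring.

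The class I light and heavy chains had different distances from the reference. *B2m*, the light chain shared by all class I molecules, had log2 ratios of −2.02, −2.07 and −1.71 in mice 1, 2 and 3. All 3 mice were thus at least 3-fold below the reference by this probe, with a mean of −1.93 (SE 0.159, n = 3, adjusted p = 0.000111). Its probe still ranked at percentile 99.2 in CPE and 99.9 in the reference. A second probe in the same transcript gave −2.66, −1.81 and −2.11, with a mean of −2.19. Another, designed on another cDNA of the locus and ranking at percentile 53.4, had a ratio of −0.08. Under median centring, which removes no trend of the ratio with intensity, *B2m* was at −0.97 (adjusted p = 0.0518) and no longer past the threshold. It was past it in the other 9 alternatives, with ratios down to −2.05.

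*H2-K1*, the classical class I heavy chain that presents peptide to CD8+ T cells, had ratios of −0.56, −0.56 and −0.17. The mean of −0.43 (SE 0.162, n = 3, adjusted p = 0.0721) did not pass, and it turned to 0.47 under median centring (adjusted p = 0.324). The probe ranked at percentile 99.1, 99.2 and 99.5 in the 3 mice and at 99.5 in the reference. The other *H2-K1* probes, 3233 and 3423 bp upstream on the genome, gave mean ratios of −0.08 and −0.42.

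Of the 22 class I-like genes, which include the non-classical H2-Q, H2-T and H2-M genes, 15 were tested and 0 were past the threshold in either direction by limma. By adjusted p alone *H2-T22* and *H2-Q7* were lower (background 23.7% of all tested genes). In 4 of the 15 (26.7%) the unadjusted p was under 0.05, against 50.9% of all tested genes. *H2-T22*, a ligand of gamma delta T cells, had ratios of −0.76, −0.63 and −0.56 (mean −0.65, adjusted p = 0.0121). The other *H2-T22* probes had means of −0.35 and −0.54, which did not pass (adjusted p = 0.214 and 0.104). They ranked in the moderate class, at percentiles 87.5 and 73.1. *H2-Q7*, a Qa-2 molecule, had ratios of −0.46, −1.02 and −0.26 (mean −0.58, adjusted p = 0.0429). In both genes all 3 mice were below 0, and mouse 2 stood apart in *H2-Q7*. Under median centring they were at 0.02 and 0.12 and no longer below 0.

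7 class I-like genes were in the high class. *H2-T23* encodes Qa-1, the ligand of the NKG2A receptor of natural killer cells, and it ranked at percentile 94.98 with ratios of −0.18, −0.82 and −0.16. *H2-Q10*, known as a secreted class I molecule, ranked at 96.1 with ratios of −0.20, −1.01 and −0.02. *H2-Q2* ranked at 96.5, with ratios of −0.23, −0.90 and −0.15. The same low value of mouse 2 was seen in *H2-Q5*, at percentile 94.9, with ratios of 0.19, −0.69 and 0.16. *H2-Q1*, at percentile 90.7, had ratios of −0.34, −0.63 and −0.39, in which mouse 2 was nearer to the others. Another tested probe named *H2-Q1*, 60947 bp upstream on the genome, had a mean of −0.89 (adjusted p = 0.0167). It ranked at 84.2, in the moderate class, and was the only tested probe of that name whose accession matched *H2-Q1* in RefSeq. Whether the high-ranking probe measures *H2-Q1* or another gene was not tested. *H2-Q7* and *H2-T22* ranked at 93.4 and 91.8. RefSeq lists *H2-Q5*, *H2-D4* and *H2-Bl* as transcribed pseudogenes. Class I genes are near-identical to each other in many exons, and the files hold no probe sequences, so how much of a signal came from another class I transcript was not tested.

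Of the 12 class I heavy chain genes well above background in CPE on all arrays, 11 had a mean ratio below 0, with a median of −0.42 over the 12, but under median centring 10 of the 12 were above 0. The direction against the reference therefore depends on the centring. The percentile ranks the CPE intensity and not the ratio, but the reference still enters it, because normalization between arrays uses the mean of both channels. By percentile 8 of these 12 genes were high, 3 moderate and 1 low. Mouse 2 was the lowest mouse in 8 of these 12 genes (66.7%), in 20 of the 38 tested members (52.6%) and in 21.0% of all tested genes.

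The H2-M genes looked different. Of these 10 genes, *H2-M3*, which presents formylated peptides, was moderate at percentile 68.0, and the other 9 were low. The median percentile of the 10 was 34.3. Only *H2-M3* was well above background in CPE on all 3 arrays, and its 2 probes had mean ratios of −0.21 and 0.30. *H2-M1* and the *H2-M10* genes are known from the vomeronasal organ.

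Several probes of a gene did not always agree. Among the 17 genes with more than 1 probe, 11 spanned more than 1 percentile class. The 5 probes named *H2-Q10* ranged from percentile 8.32 to 96.1, and the 3 named *H2-Bl* from 20.5 to 72.8. Both signs occurred among the tested probes of *Canx*, *H2-Ab1* and *H2-M3*.

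**Figure D2:**
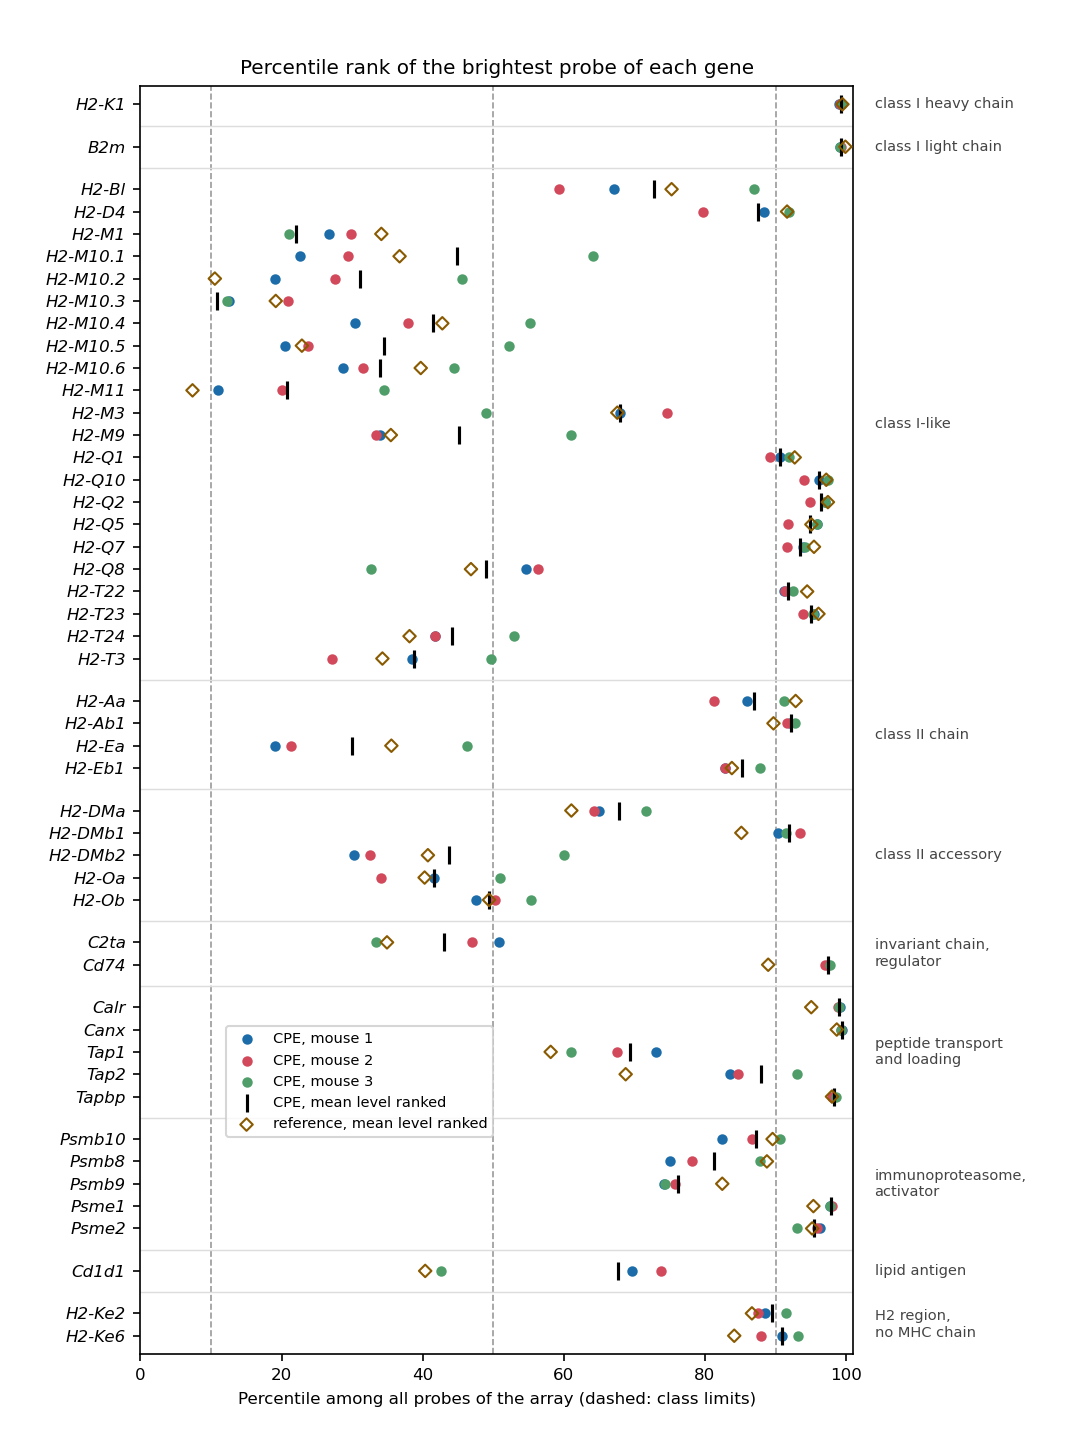
Percentile rank of the brightest probe of all 48 genes among all probes of the array, by mouse for CPE (dots), for the mean CPE level (bar) and for the mean reference level (diamond). Dashed lines are the class limits at 10, 50 and 90. *B2m*, *H2-K1* and the H2-Q and H2-T genes above 90 lie beside their reference ranks, whereas *Cd74*, *Tap2* and *Cd1d1* lie to the right of theirs.

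In the class II pathway the invariant chain rose in CPE, and 0 of 3 tested class II chains passed the threshold in either direction. *Cd74* had log2 ratios of 2.14, 1.70 and 1.91. All 3 mice were above 3-fold, with a mean of 1.91 (SE 0.162, n = 3, adjusted p = 0.000126), and the probe ranked at percentile 97.4 in CPE and 89.0 in the reference. It stayed past the threshold in all 10 alternatives, between 1.80 and 2.61. *Cd74* has 1 probe on the array.

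*H2-Aa*, the I-A alpha chain, had ratios of −0.90, −1.57 and −0.52. The mean of −0.995 (SE 0.216, adjusted p = 0.00925) was just inside 2-fold and so not past the threshold. It was past it with array weights (−1.02), without mouse 1 (−1.04) and without mouse 3 (−1.23). Without mouse 2 it was at −0.71, and under median centring at −0.42 (adjusted p = 0.367). Its second probe, 658 bp nearer the 3′ end, had ratios of −0.38, −0.63 and −0.22, with a mean of −0.41. *H2-Ab1*, the I-A beta chain that pairs with it, had ratios of 0.48, 0.21 and 0.28 (mean 0.32, adjusted p = 0.136), and its 4 probes ranged from −0.16 to 0.32. *H2-Eb1* was at 0.16, −0.04 and 0.01, with a mean of 0.04; its probe was designed on a cDNA that the array annotates as an I-A beta chain. Thus all 3 mice were below 0 at the brightest probe of *H2-Aa* and above 0 at that of *H2-Ab1*. The brightest probes of *H2-Aa*, *H2-Ab1* and *H2-Eb1* ranked at percentiles 87.0, 92.2 and 85.2. *H2-Ea*, which RefSeq lists as a transcribed pseudogene in C57BL/6J, ranked at 30.0 and was well above background in CPE on 1 array.

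Among the accessory chains, *H2-DMb1*, the beta chain of the peptide loader H2-DM, had ratios of 0.79, 1.16 and 0.59. All 3 mice were above 0, with a mean of 0.85 (SE 0.171, adjusted p = 0.00674) that fell short of 2-fold, and the second probe gave 0.66. *H2-DMa*, its alpha chain, was at 0.65, 0.59 and 0.08 (mean 0.44, adjusted p = 0.0832). *H2-Ob*, of the inhibitor H2-O, was at 0.09. The transactivator *C2ta* ranked at 43.0, in the low class, and was well above background in CPE on 2 of 3 arrays with a mean ratio of 0.18. Of the factors that bind class II promoters beside it, *Rfx5*, *Rfxank*, *Rfxap*, *Nfya* and *Nfyc* did not pass, and *Nfyb* (−1.25) was lower. *Creb1* had ratios of −0.78, −1.67 and −0.69 (mean −1.05), was not past the threshold without mouse 2 (−0.74), and its 3 probes ranged up to 0.02.

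Markers of leukocytes, a group in which some cell types are known to carry class II transcripts, were measured in the same samples. All 16 leukocyte markers were tested. Past the threshold 0 were higher (background 8.11% of all tested genes) and 5 lower (background 11.2%). By adjusted p alone 1 was higher (background 18.8%) and 11 were lower (background 23.7%). Under median centring 2 were lower and 0 higher, and by the scanner's log ratio 7 were lower and 1 higher. For these other settings the share of all genes is not given here. In CPE 13 of the 16 were well above background on all 3 arrays. Their median log2 ratio was −0.74, and it was −1.80 for 6 stromal and −0.26 for 6 endothelial markers, the latter turning to 0.31 under median centring. The mean percentile of the 16 was 69.7, 72.2 and 63.9 in mice 1, 2 and 3 and 75.2 in the reference. *Ptprc*, the pan-leukocyte CD45, had a ratio of −0.78 and a percentile of 55.8, and *Cd68* of macrophages −1.89 and 73.5. *Lyzs*, lysozyme of macrophages, was at −3.40 and still ranked at 97.8, *Csf1r* ranked at 90.5 and *C1qc* at 93.9. *Cd3e* of T cells was at 0.69. Thus leukocyte transcripts were present in the dissected CPE, at lower ratios than those of *Cd74*; their part in the class II signal was not tested. *Ctss*, the cathepsin that trims the invariant chain, fell with a ratio of −3.01.

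All 5 genes of peptide transport and loading had a mean ratio above 0. Of them 2 rose past the threshold (background 8.11% of all tested genes), and 4 were higher by adjusted p alone (background 18.8%). *Calr*, calreticulin, had ratios of 2.39, 1.69 and 1.74, with a mean of 1.94 (SE 0.187, n = 3, adjusted p = 0.000236). Its second probe, 2337 bp upstream, gave 3.04, 0.17 and 1.30, in which mouse 2 stood far below mouse 1. *Tap2*, a chain of the peptide transporter, had ratios of 2.13, 2.18 and 1.02. Mouse 3 had the lowest ratio, and the mean was 1.78 (SE 0.245, adjusted p = 0.00126). Its CPE rank was not the lowest, with percentiles of 83.49, 84.68 and 93.01 in mice 1, 2 and 3. The reference, the same RNA on every array, ranked at 29.90, 47.52 and 86.33 on these arrays. The low ratio of mouse 3 thus went with a high reference rank, and why the reference differed was not tested. *Tap2* has 1 probe on the array. Both genes were past the threshold in all 10 alternatives. *Tap1*, the partner chain of *Tap2*, had ratios of 0.70, 0.37 and 0.44. They lay below those of *Tap2* in every mouse, with a mean of 0.50 (adjusted p = 0.0364). The difference between *Tap1* and *Tap2* compares different probes and was not tested.

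*Canx*, calnexin, had ratios of 0.76, 0.73 and 0.71, the smallest spread between mice of these 5 genes, with a mean of 0.73 (adjusted p = 0.00688). Its other probes had means of 1.40 and −0.20. The second of these held 0.69, −1.55 and 0.26 in mice 1, 2 and 3, so the sign rests on mouse 2. *Tapbp*, tapasin, was at 0.23, 0.04 and 0.21. Its second probe had a mean of 0.71 (adjusted p = 0.0222) and ranked in the moderate class, at percentile 76.4. By their brightest probes *Calr*, *Canx* and *Tapbp* were in the high class, at percentiles 99.0, 99.4 and 98.3. Calreticulin and calnexin are general chaperones of the endoplasmic reticulum. Outside the member list, *Pdia3*, their disulfide isomerase partner (2.23), and *Hspa5*, the chaperone BiP (1.71), rose as well.

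The catalytic subunits of the immunoproteasome replace those of the constitutive proteasome after interferon. By adjusted p alone 2 of 3 were lower in CPE, *Psmb8* and *Psmb9* (background 23.7% of all tested genes). Under median centring these 2 were at −0.43 and −0.28 and did not pass. *Psmb8* had ratios of −1.23, −1.05 and −0.46. Mouse 3 was nearest to the reference, and the mean was −0.92 (SE 0.190, adjusted p = 0.0077). Without mouse 1 it was at −0.76 (adjusted p = 0.0663). It was past the threshold without mouse 3 (−1.14), with array weights (−1.06) and as the mean of its probes (−1.08), and its second probe passed at −1.24. *Psmb9* had ratios of −0.66, −0.74 and −0.81 (mean −0.73, adjusted p = 0.00706). *Psmb10* was at −0.55, −0.36 and −0.31 (mean −0.40, adjusted p = 0.0706), and its mean was 0.15 under median centring. All 3 genes were in the moderate class.

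Their constitutive counterparts stood higher. *Psmb5*, which *Psmb8* replaces, had ratios of 0.94, 0.86 and 0.51, with a mean of 0.77. *Psmb7*, which *Psmb10* replaces, rose, with ratios of 2.17, 1.37 and 1.81 and a mean of 1.78. *Psmb6*, which *Psmb9* replaces, was at −0.16, −0.15 and −0.29, with a mean of −0.20. In each of the 3 pairs all mice had a higher ratio for the constitutive subunit; as different probes were compared, this is a description. *Psme1*, the alpha chain of the interferon-inducible activator PA28, had ratios of 0.82, 1.00 and 0.89. The mean of 0.90 (adjusted p = 0.00287) fell short of 2-fold. *Psme2*, its beta chain, was at 0.08, −0.23 and 0.01, with a mean of −0.05. Both ranked high, at 97.8 and 95.4. *Psme3*, the nuclear activator PA28 gamma, rose, with a mean of 1.71.

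**Figure D3:**
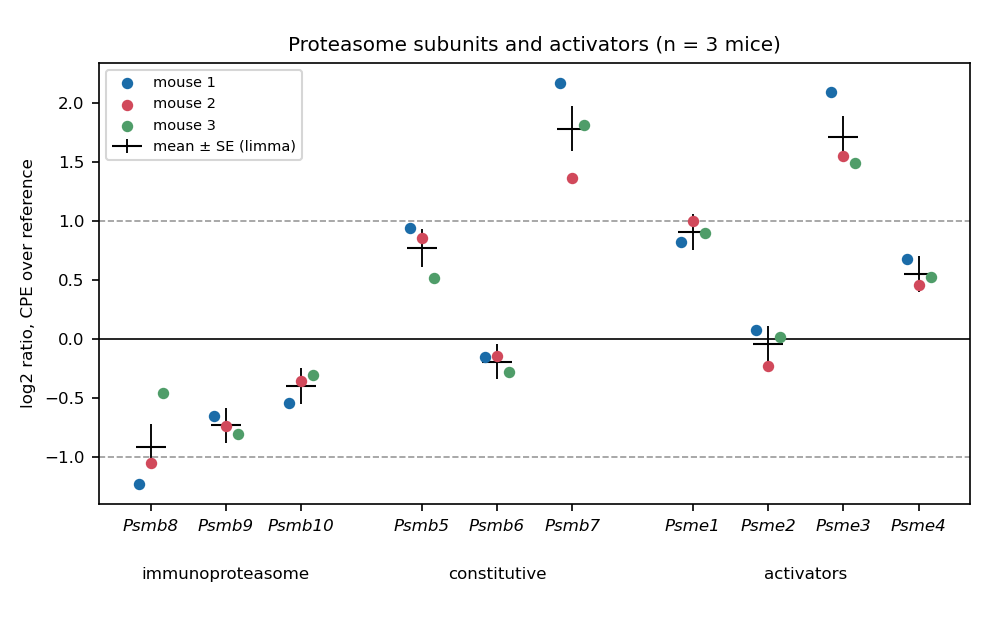
Log2 ratio of CPE over reference for the immunoproteasome subunits, their constitutive counterparts (*Psmb8* with *Psmb5*, *Psmb9* with *Psmb6*, *Psmb10* with *Psmb7*) and the proteasome activators. Dots are the 3 mice, black bars the limma mean with its SE, dashed lines mark 2-fold; the immunoproteasome subunits lie below 0 in all mice with loess (*Psmb10* at 0.15 under median centring), and *Psmb7* and *Psme3* lie above 1.

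*Cd1d1*, which presents lipids to natural killer T cells, had ratios of 1.07, 1.48 and −0.06. Mouse 3 had no excess over the reference, and the mean was 0.83 (SE 0.279, adjusted p = 0.0485). It was past the threshold without mouse 3 (1.27) and with array weights (1.00), and was at 0.71 without mouse 1 (adjusted p = 0.182) and to 0.51 without mouse 2 (adjusted p = 0.174). The SD between the mice, 0.796, was the highest of the 38 tested members.

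The rule also took *H2-Ke6* and *H2-Ke2*, which lie in the H2 region and encode no MHC chain. *H2-Ke6*, now *Hsd17b8*, is a steroid dehydrogenase and ranked at percentile 90.9, with ratios of 1.10, 0.54 and 0.78 (mean 0.81, adjusted p = 0.00796). *H2-Ke2*, now *Pfdn6*, is a subunit of the prefoldin chaperone and had a mean of 0.29.

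Other genes of the pathway were taken from a list of 45, of which 44 were found and 40 tested. The list's *Nlrc5*, the class I transactivator, has no probe under that name and was not analysed here. By the same threshold 5 of the 40 were higher (background 8.11% of all tested genes) and 6 lower (background 11.2%). The median log2 ratio was −0.08, and 16 of the 44 were in the high class (background 12.7% of all genes). Those that rose were *Pdia3*, *Psmb7*, *Hspa5*, *Psme3* and *Hfe*, a class I-like regulator of iron uptake (1.28). Those that fell were *Ctss*, *March1*, a ubiquitin ligase that removes class II from the surface (−1.94), *Nfyb*, *Creb1*, the interferon regulatory factor *Irf1* (−1.23) and *Cd274*, the checkpoint ligand PD-L1 (−1.11). Of 8 class I regulators, *Irf1* was past the threshold, and 6 with *Irf1* were lower by adjusted p alone (background 23.7%). The kinases *Jak1* and *Jak2* were at −0.82 and −0.67. The costimulators *Cd80*, *Cd86* and *Cd40* failed the same filter on dim probes and were not tested. The calls of *Irf1*, *Nfyb*, *Cd274* and *Creb1* (−0.43) were lost under median centring, that of *Cd274* also without mouse 1 (−0.93), and *Irf1* has a second probe at 0.02.

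The *H2-Q7* probe is printed at 10 spots per array, which show the noise of printing and hybridization and not that between animals. Its mean log2 ratio over the spots was −0.46, −1.02 and −0.26 in mice 1, 2 and 3, with an SD within the array of 0.0693, 0.0598 and 0.111. The SD between the mice was 0.391, and the spots of mouse 2, between −1.15 and −0.94, did not overlap those of mouse 1, between −0.61 and −0.37.

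How low mouse 2 was depended on where a probe lies in its gene. In 13 genes with several tested probes between 100 and 10000 bp apart, the outermost probes were compared, with the strand read from the order of the probe coordinates. All distances between probes, here and above, are between genomic coordinates and are not lengths along the transcript. Mouse 2 was set against the mean of mice 1 and 3. Its deviation in log2 ratio was lower at the 5′ probe in 12 of the 13 genes (92.3%), with a median difference of −0.75. Over all 3749 such genes it was lower at 73.8%, with a median of −0.30. In *Canx* the deviation was 0.00 at the 3′ probe and −2.03 at the probe 1759 bp upstream. In *Calr* it went from −0.37 to −2.01, and in *H2-K1* from −0.19 to −1.72. *Psmb8* alone went the other way, from −0.21 to 0.24 over 322 bp. These genes were chosen for no such pattern, but the pattern over all genes was known beforehand, so it is a description. Its part in the low class I ratios of mouse 2 was not tested. Without mouse 2 the mean of *H2-Q10* was −0.11, of *H2-Q2* −0.19, of *H2-T23* −0.17, of *H2-D4* −0.27 and of *H2-Q5* 0.18. *H2-K1*, in which mouse 2 was not the lowest, was at −0.36, and *H2-Q7* was at −0.36 (adjusted p = 0.237).

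**Figure D4:**
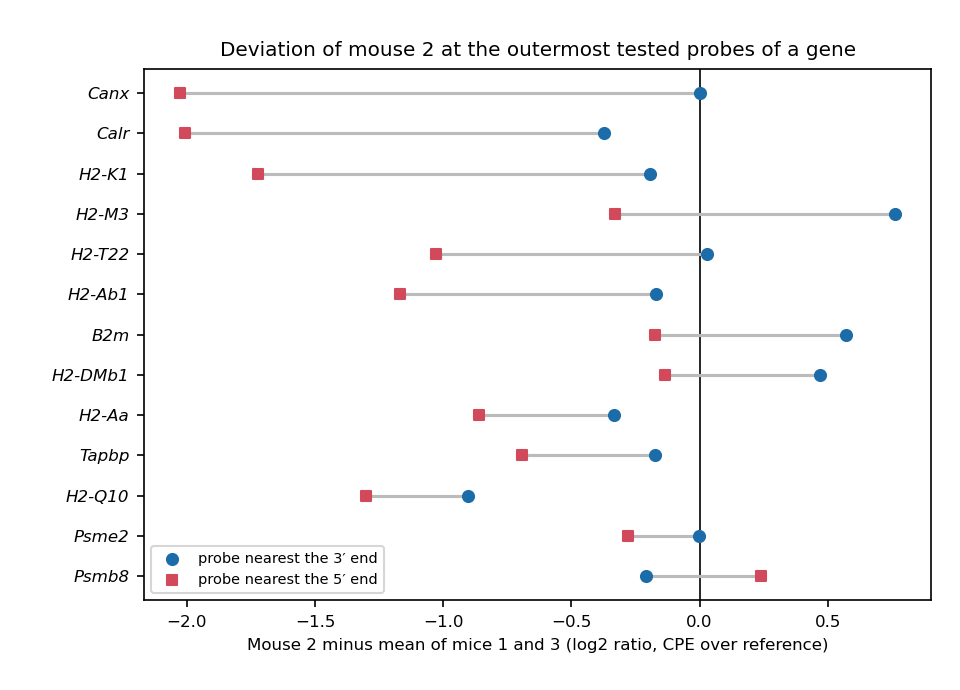
Deviation of mouse 2 from the mean of mice 1 and 3, in log2 ratio of CPE over reference, at the tested probe nearest the 3′ end (circle) and nearest the 5′ end (square) of 13 genes. The square lies left of the circle in 12 genes, and in *Psmb8* it lies to the right.

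The centring of the arrays moved the bright members most. From loess to median centring, the median ratio of all tested probes moved from −0.04 to 0.09. The 18 high class members moved up by 0.54 to 0.96, with a median of 0.74, and the other 20 tested members by −0.24 to 0.58, with a median of 0.17. Under median centring *Canx* (1.60), *Psme1* (1.68), *H2-DMb1* (1.45) and *H2-Ke6* (1.35) joined *Cd74*, *Calr* and *Tap2* past the threshold. In that setting 0 members were lower. The share of all tested genes past the threshold in that setting is not given here, so these counts have no background.

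**Figure D5:**
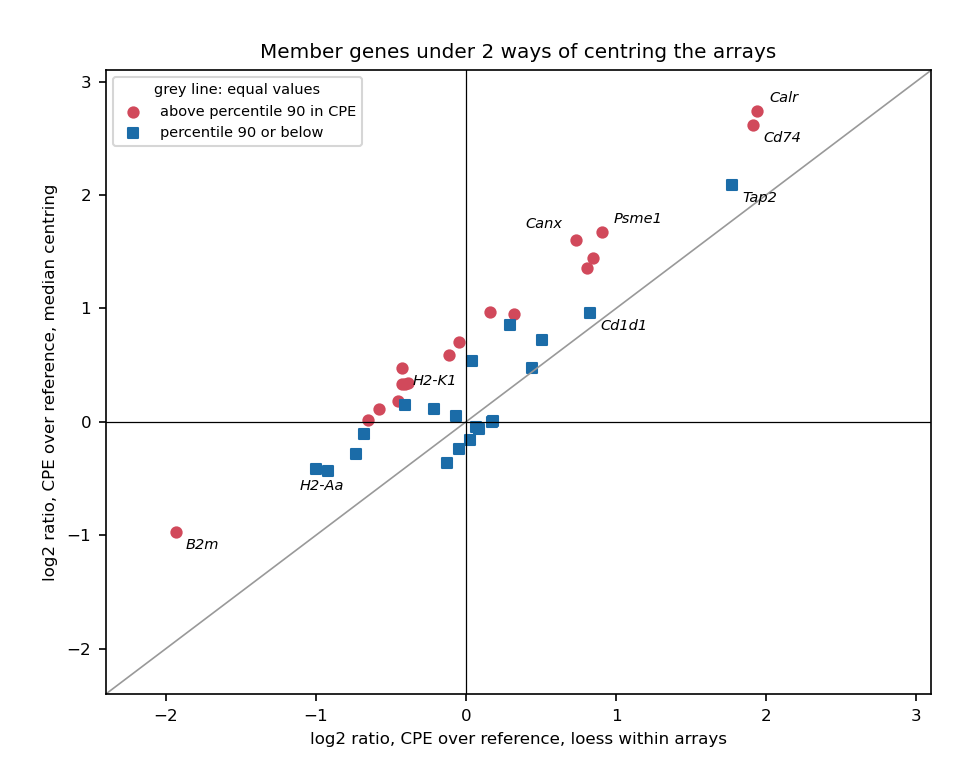
Log2 ratio of CPE over reference of the 38 tested members after loess within arrays (horizontal axis) and after median centring (vertical axis). The grey line marks equal values; members above percentile 90 (circles) all lie above it, *H2-K1* changes sign and *B2m* moves from −1.93 to −0.97.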

How the data were processed

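Total RNA of laser dissected CPE (n = 3 mice) was amplified and hybridized against a common RPE/choroid reference on Agilent mouse arrays; separate animals are the replicates, and 3 arrays limit the precision. Per the labels, images were read with Agilent Feature Extraction 9.5.3.1 and processed in R 2.14.0 with limma; the deposited scanner files hold a mean and a background intensity per spot and channel. The authors' deposited log2 table holds, by the study's methods, mean intensities after Aquantile; its columns rank like the CPE channel (rank correlation 0.998, 0.998 and 1.00, column medians 6.86, 6.82 and 6.85), and it served only as an alternative. The scanner's log10 log ratio, deposited in the same files, was another.

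Ratios were computed in R 4.3.3 with limma 3.58.1: normexp background correction (offset 50), loess within arrays with control and outlier spots at weight 0, spots of a probe averaged, an intercept-only lmFit with eBayes, and Benjamini-Hochberg adjustment over 25841 probes for which 1 of the channels was well above background on every array; 58 of the 76 member probes passed. The reference is 1 RNA, so its own spread is not in the errors. Each array is on its own slide, so slide and mouse cannot be told apart. Percentiles follow the study's methods: log2 mean red intensities, no background correction, Aquantile between arrays, ranks of the mean of 3 mice. All members, and other genes past the threshold up to the 10 with the largest ratio, were to be named; *Creb1* was added after its value was seen. The members, lists and tests were chosen with earlier results of these data known. Probe accessions matched RefSeq for 63 of 76 member probes. Tables were made in Python 3.11.15 with pandas 2.3.3, and the fit was tested on simulated data. Alternatives covered background correction, centring, scanner ratios, filters, array weights, probe choice and each mouse left out. The marker lists are those of CPE, RPE and melanocytes, leukocytes, stroma and endothelium; their values under each scaling were added after the data were seen.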

Additional observations from a re-analysis of the deposited data

How the results depend on the processing

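No paired analysis was possible because the samples form 1 group. Of the tested members past the threshold, those higher numbered 3 and became 7 under median centring and 9 by adjusted p alone; those lower numbered 1 and became 0 under median centring, 3 with array weights, 2 with the mean of the gene's probes, 6 by adjusted p alone and 1 to 3 with a mouse left out. Other pathway genes that were higher numbered 5 and became 9 under median centring and 10 by adjusted p alone. Those lower numbered 6 and became 2 and 11. Apart from adjusted p alone, the shares of all tested genes under these alternatives are not given here. High class members fell from 18 to 9, and high class pathway genes from 16 to 10, where dim probes were left out of the ranking. That ranking holds fewer probes, so fewer genes can be high in it. These ratios changed sign under median centring: *H2-Bl* 0.052, *H2-K1* 0.47, *H2-M10.4* −0.16, *H2-M3* 0.11, *H2-Ob* −0.063, *H2-Q1* 0.18, *H2-Q10* 0.33, *H2-Q2* 0.34, *H2-Q5* 0.59, *H2-Q7* 0.12, *H2-Q8* −0.049, *H2-T22* 0.019, *H2-T23* 0.34, *Psmb10* 0.15 and *Psme2* 0.71. *H2-M10.4* was −0.13 by the scanner's ratio and −0.033 with array weights, and *H2-M3* was 0.045 as the mean of its probes. With a mouse left out, ranges that crossed 0 were −0.26 to 0.11 for *H2-Bl*, −0.018 to 0.085 for *H2-Eb1*, −0.065 to 0.094 for *H2-M10.4*, −0.20 to 0.038 for *H2-M10.6*, −0.46 to 0.0086 for *H2-M3*, −0.26 to 0.18 for *H2-Q5*, −0.032 to 0.19 for *H2-Q8* and −0.11 to 0.046 for *Psme2*. Of the ratios of the 38 tested members and the 10 pathway genes named by rule, 427 kept their direction and side of the threshold, 12 came past it, 7 fell short of it and 27 changed sign over the alternatives. The causes were not tested. Genes near background in CPE, most of the H2-M genes among them, have little signal to show a difference.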
